A study of Mus musculus with 12 samples.

Results

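The genes described here are those with their highest RNA level in Eomes-negative cells on day 3 of mouse embryonic stem cell differentiation. They were chosen from group means of the normalized values, which are read counts divided by 1 constant per library (CPM-like): the Eomes-negative (Eo-) mean had to be at least 5 and at least 2 times the means of both undifferentiated embryonic stem cells (ESCs) and Eomes-positive (Eo+) cells. Of 18327 loci that carry an annotated gene name and normalized values, 97 met this rule, which is 0.946% of the 10251 that had an Eo- mean of at least 5. The same rule turned to the other groups gave 613 genes peaking in ESCs and 460 peaking in Eo+ cells, so the Eo- peak was the rarest of the 3. Since the values of all 12 libraries chose the genes, the height of the Eo- peak is given as a description without a test.

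The series holds poly(A) RNA sequencing of 12 libraries, 4 in each of 3 groups, numbered as replicates 1, 2, 5 and 6. All came from a C57BL/6 ESC line in which EGFP had been inserted at the start of the endogenous Eomes gene, so every group carries the reporter allele. ESCs were collected at day 0 from cultures on mouse embryonic fibroblast feeders in serum medium with leukemia inhibitory factor, and Eo- and Eo+ cells were sorted at day 3 from embryoid bodies grown in hanging drops without that factor. EGFP marks the cells that have switched on Eomes, which encodes a T-box transcription factor of the primitive streak. Eo- is therefore defined by low reporter signal and not by a lineage marker, and all values come from this reporter line.

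Background for the day 3 stage is as follows. As naive ESCs leave self-renewal they pass through a formative, epiblast-like state, in which de novo DNA methyltransferases and factors such as Pou3f1 and Otx2 come on while naive factors go down, and the cells keep epithelial junctions. Cells that then respond to Nodal and Wnt signals switch on Eomes and Brachyury, lose junctions and enter mesendoderm. Cells that have not done so by day 3 can hold on to epiblast character or take other fates, and a sorted negative fraction can contain several of these.

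Eomes itself, which checks the sort, had normalized values of 36.4, 57.8, 49 and 42.9 in ESC replicates 1, 2, 5 and 6, 136, 171, 118 and 131 in the Eo- libraries and 453, 656, 449.9 and 584 in the Eo+ libraries, so the 3 groups did not overlap. The libraries held 648413022 to 837308168 counts over loci, and a count of 3 corresponded to 0.00359 to 0.00476 normalized units. Marker sums over whole lists moved with the groups. The 15 naive pluripotency genes together ran from 3737 to 4911 in ESCs, 1474 to 1821 in Eo- cells and 589 to 884 in Eo+ cells, and the 17 mesendoderm genes from 130 to 405, 371 to 785 and 3004 to 4468. The 18 feeder fibroblast genes summed to 265 to 863 in ESCs, 78.7 to 99.7 in Eo- cells and 92.8 to 130 in Eo+ cells. The part of feeder RNA in the ESC values of the 97 genes was not tested.

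**Figure D1:**
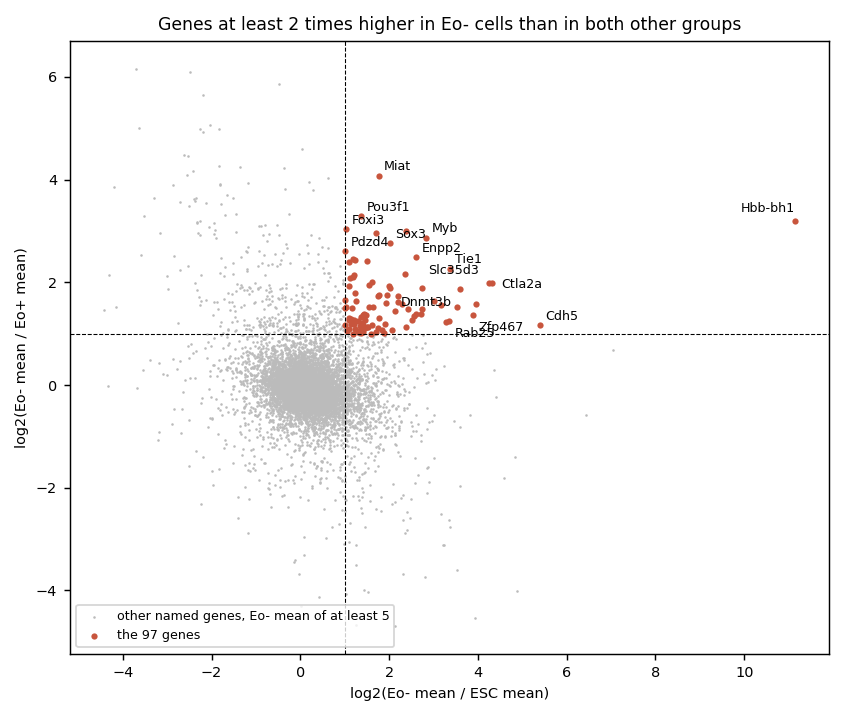
Each point is a named gene with an Eo- mean of at least 5, placed by log2 of the Eo- mean over the ESC mean (horizontal) and over the Eo+ mean (vertical), and the dashed lines mark 2-fold. The 97 genes fill the upper right corner, most of them close to the lines, with Hbb-bh1 and Cdh5 farthest from the ESC level and Miat farthest from the Eo+ level.

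The peak was modest for most of the 97 genes. The Eo- mean divided by the higher of the other means ran from 2.003 to 9.14 with a median of 2.37, and 23 genes reached 3-fold. Eo- means ran from 5.01 to 2062 normalized units with a median of 14.9, and the higher of the other means was that of Eo+ cells for 67 genes and that of ESCs for 30. Just inside the threshold were Trim46 (2.003), Vsig10 (2.005) and Pdzd4 (2.006), and just outside it Shroom2 (1.99), Slc5a5 (1.99) and Rassf2 (1.98). A further 173 genes had a ratio of 1.5 to under 2. Leaving out 1 library put between 1 gene (ESC replicate 1) and 15 genes (Eo- replicate 5) of the 97 outside the rule. In bulk libraries a higher value can mean more cells of a type or more RNA in each, and these cannot be told apart.

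All 4 Eo- libraries lay above all 8 other libraries for 91 of the 97 genes. The background for this separation was 5.01% of the 10251 named loci with an Eo- mean of at least 5, and as the rule used the same values nothing is read from the count. The 6 genes whose groups overlapped were Hbb-bh1, Tie1, Cdh5, Nos3, Ctla2a and Cdx2, described together further on. Within Eo- cells the coefficient of variation of the other 91 genes ran from 0.038 (Nav1) to 0.297 (H2-Q2), and that of the 6 was above 0.5. After Nav1, a gene of microtubule tips in growing axons, the steadiest were Jph4 (0.0535), Vsig10 (0.0699), Cacna1b (0.0724) and Abcc8 (0.0758).

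**Figure D2:**
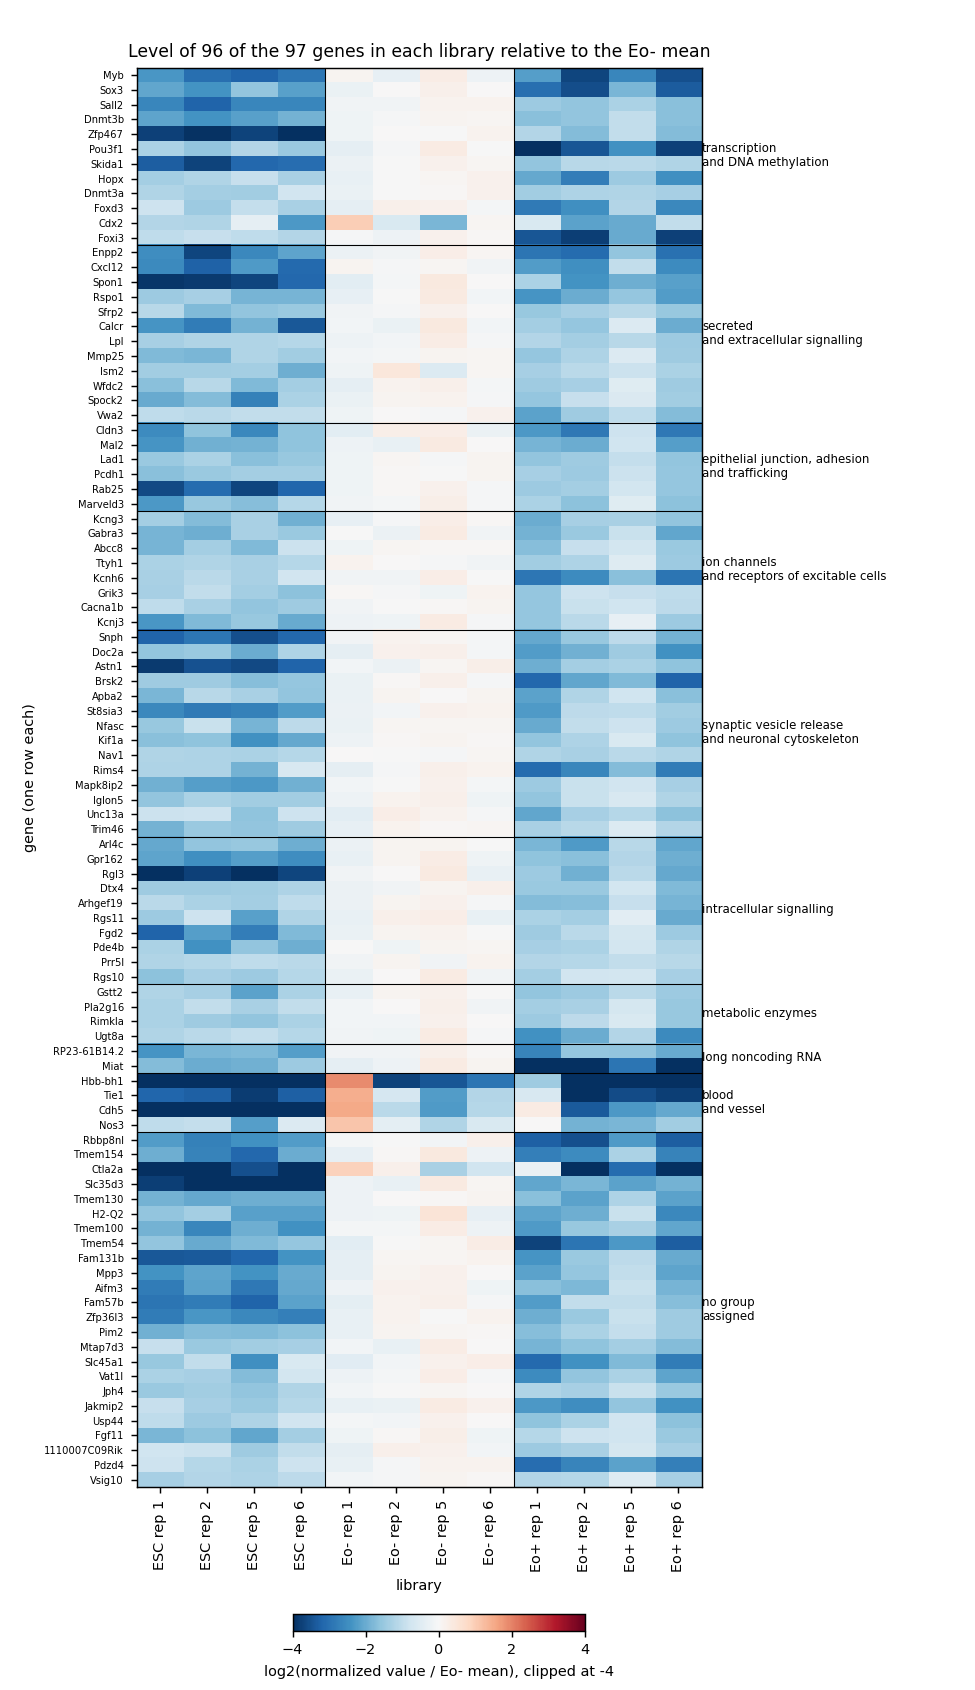
Rows are 96 of the 97 genes, grouped by function, columns are the 12 libraries, and colour gives log2 of the normalized value over the gene's Eo- mean, clipped at -4 (blue lower, red higher). The 4 Eo- columns are close to white except for the 6 genes with overlapping groups, Eo+ replicate 5 is paler than the other Eo+ columns, and those 6 genes are red in Eo- replicate 1.

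Of the 97 loci, 95 hold a protein-coding gene and 2 are long noncoding RNAs. They lie on all 19 autosomes and the X chromosome, with 10 each on chromosomes 2, 4 and 7 and 6 on the X (6.19% of the genes against 4.14% of the tested named loci). The median summed exon length was 5199 bases against 3990 for tested named loci, and the median span 27492 against 20477. Only Doc2a (chr7:126847416-126852705, mm10, + strand) and Fam57b (chr7:126816885-126830219, + strand) lay within 100 kb of each other, 17.2 kb apart. By known function 73 genes were placed in 9 groups after their values had been seen, and 24 were left without a group.

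RefSeq promoter windows of GRCm38.p6, the build the files use, were found for 70 of the 97 genes, from 250 bases before to 50 after the gene start. Of these, 59 lie within 1000 bases of the start of the deposited locus and 11 farther away, up to 334.0 kb for Pde4b. At 4 loci that hold several genes the window is that of another gene than the name used here (Ap1g2 for Jph4, A930004D18Rik for Skida1, Otud5 for Pim2 and 1700013H16Rik for Zfp36l3). The windows held 0 to 50 CpGs, with a median ratio of observed to expected CpG of 0.632 (quartiles 0.357 and 0.837), against 0.741 (0.51 and 0.899) in the windows of 11817 tested named loci. The 3 windows below are those of Dnmt3b, the gene with the highest level, of Gabra3, which has no CpG, and of Sfrp2, which carries the motif discussed after them. In the first and the second each CG is in capitals, 30 and 0 of them, and in the third the octamer that POU factors bind, read on the opposite strand as ATTTGCAT. All are written 5′ to 3′ along the gene's strand.

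Dnmt3b, chr2:153649199-153649498 (+ strand): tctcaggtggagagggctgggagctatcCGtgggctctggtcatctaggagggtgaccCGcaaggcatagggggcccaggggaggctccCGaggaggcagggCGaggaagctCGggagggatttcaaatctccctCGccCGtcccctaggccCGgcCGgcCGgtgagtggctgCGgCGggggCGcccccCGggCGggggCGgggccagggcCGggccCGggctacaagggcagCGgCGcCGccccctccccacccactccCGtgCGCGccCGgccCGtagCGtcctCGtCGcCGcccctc
Gabra3, chrX:72656758-72657057 (- strand): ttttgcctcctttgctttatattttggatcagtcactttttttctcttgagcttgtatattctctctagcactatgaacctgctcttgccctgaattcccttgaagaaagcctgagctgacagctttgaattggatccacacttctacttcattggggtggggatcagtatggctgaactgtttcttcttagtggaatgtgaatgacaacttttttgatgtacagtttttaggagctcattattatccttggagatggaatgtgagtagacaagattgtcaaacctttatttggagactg
Sfrp2, chr3:83766071-83766370 (+ strand): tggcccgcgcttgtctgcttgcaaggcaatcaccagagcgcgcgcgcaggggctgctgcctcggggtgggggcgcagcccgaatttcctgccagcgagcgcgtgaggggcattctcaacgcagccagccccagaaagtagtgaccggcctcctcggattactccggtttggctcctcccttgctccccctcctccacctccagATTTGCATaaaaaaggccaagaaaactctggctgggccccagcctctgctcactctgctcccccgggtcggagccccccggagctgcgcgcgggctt

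The letters of 8 motifs were searched on both strands. The octamer ATGCAAAT was found in 2 of the 70 windows, those of Sfrp2 and Cdx2 (2.86%), against 1.5% of the windows of tested named loci. The TATA box, written TATAAA, was in 8.57% of the windows of the 97 genes against 7.78% of those of tested named loci. For GATA factors the letters AGATAA were found in 8.57% against 6.51%. The E-box, CANNTG, is short and was in 70.0% against 64.1%. Among Wnt effectors the TCF/LEF letters CTTTGAT were in 2.86% against 2.51%. The SOX letters AACAAAG were found in 4.29% against 3.88%. AACCGGTT (grainyhead-like) and the RE1 motif, searched by its core letters, were in 0 of the 70 windows, against 0.245% and 0.0423%. A match is only a description of this window.

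Transcription regulators and DNA methyltransferases made up 12 of the 97 genes, and Dnmt3b had the highest level of all. Dnmt3b and Dnmt3a encode the enzymes that place new methyl groups on CpG sites. Dnmt3b was at 474, 395, 458 and 551 normalized units in ESC replicates 1, 2, 5 and 6, 1825, 1988, 2239 and 2196 in Eo- and 654, 683, 1053 and 649 in Eo+. The Eo- mean was 4.39 times that of ESCs and 2.71 times that of Eo+ cells. Dnmt3a was at 122, 111, 109 and 168 in ESCs, 236, 282, 294 and 319 in Eo- and 108, 119.9, 122 and 114 in Eo+. Its Eo- libraries were all above its other libraries, whereas ESCs and Eo+ cells overlapped. Per length, as FPKM computed from counts and exon length, Dnmt3b stood at 399.6 FPKM ± 30.5 and Dnmt3a at 16.3 ± 1.71 (SD, n = 4) in Eo- cells. Dnmt3l, the catalytically inactive partner of these enzymes and no member of the 97, had a different order, with means of 298 in ESCs, 77.6 in Eo- and 10.1 in Eo+ cells.

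Pou3f1 (Oct6), a POU factor of the formative epiblast and of neural progenitors, was at 37.6, 29.9, 39.6 and 32.4 in ESCs, 70.5, 87, 113 and 89.9 in Eo- and 5.04, 8.4, 16.7 and 6.79 in Eo+. The 3 groups did not overlap, with Eo+ lowest. Sox3, an X-linked SOXB1 factor of epiblast and neural plate, was at 7.8, 6.33, 11 and 7.35 in ESCs, 27.5, 33.2, 37.7 and 33 in Eo- and 4.05, 2.84, 9.26 and 3.3 in Eo+, so that Eo+ replicate 5 fell among the ESC values. Foxd3, a forkhead factor of the epiblast and later the neural crest, was at 30.9, 19.8, 28 and 21.9 in ESCs, 42.6, 61.9, 61.1 and 51.4 in Eo- and 7.72, 9.86, 24.3 and 9.17 in Eo+. Again Eo+ replicate 5 alone reached the ESC range. Sall2, a zinc-finger factor of the spalt family, was lowest in ESCs, with 20.8, 14, 20.8 and 21, intermediate in Eo+ at 46.9, 43.1, 53.4 and 40.3 and highest in Eo- at 115, 115, 141 and 139.7.

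Myb, the proto-oncogene of haematopoietic and other progenitors, had the second largest ratio. It was at 6.73, 4.2, 3.72 and 4.59 in ESCs, 37.1, 27.3, 42.3 and 30.0 in Eo- and 7.38, 2.7, 5.63 and 2.96 in Eo+, a ratio of 7.1 with no overlap between Eo- and the rest. Zfp467, a zinc-finger gene, had an ESC mean of 1.01 ± 0.16, an Eo- mean of 14.9 ± 1.28 and an Eo+ mean of 5.77 ± 1.56 (SD, n = 4). The Skida1 locus, which also holds A930004D18Rik, had the same order, with means of 2.5, 24.2 and 10.4. Foxi3, a forkhead factor known from ectodermal placodes, and Hopx, an atypical homeodomain gene, had Eo- means of 35.9 and 10.7, ESC means of 17.6 and 4.7 and Eo+ means of 4.39 and 2.5.

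**Figure D3:**
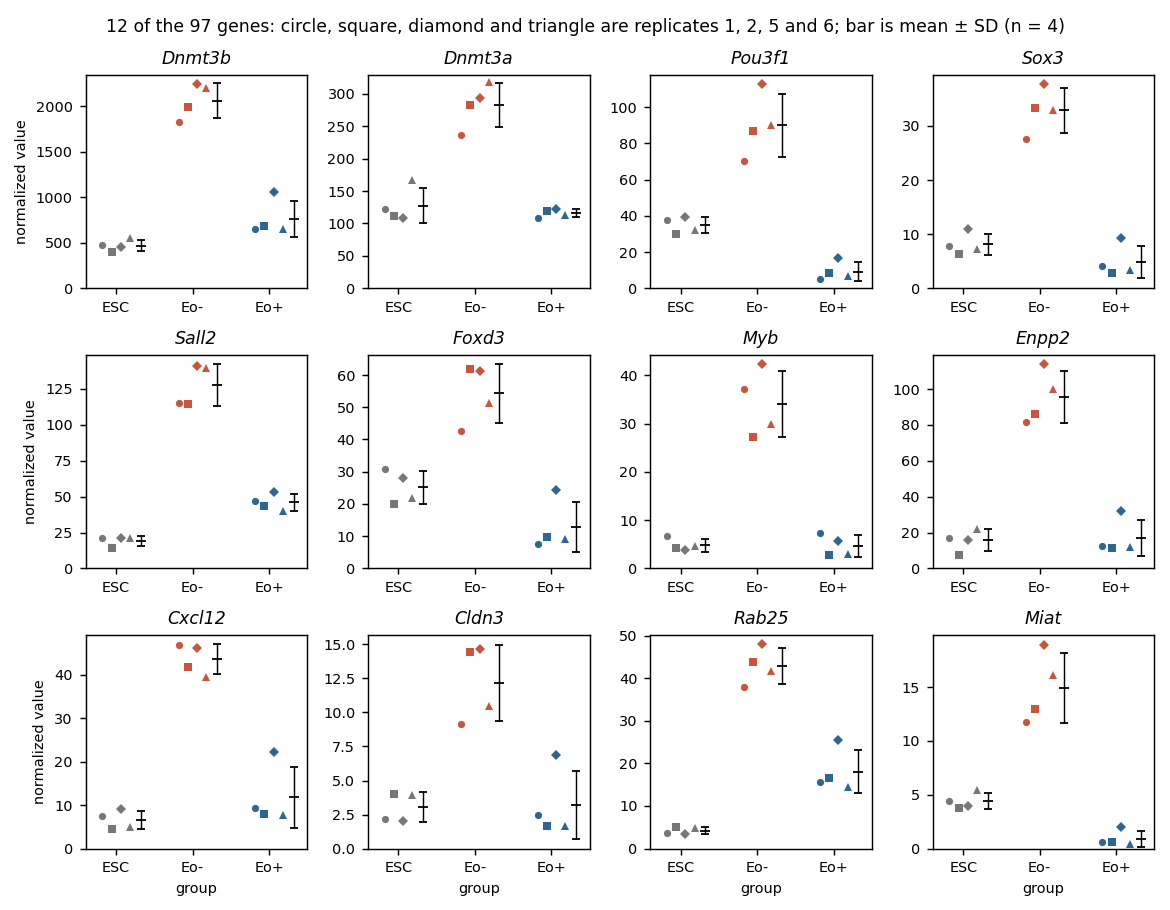
For 12 of the genes the normalized value of each library is plotted by group on axes that start at 0, with the mean and SD (n = 4) beside it. All Eo- points are above all ESC and Eo+ points, and the diamond of Eo+ replicate 5 is the highest Eo+ point in 11 of the 12 panels, with Myb the exception.

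Among 12 secreted or extracellular signalling genes, Enpp2 had the largest ratio. It encodes autotaxin, the secreted enzyme that makes lysophosphatidic acid, and was at 17.2, 7.51, 15.8 and 22.1 in ESCs, 81.7, 86.2, 114 and 100.1 in Eo- and 12.5, 11.3, 32.3 and 12.2 in Eo+. ESC and Eo+ values overlapped, and only Eo+ replicate 5 stood above the ESC range. The chemokine gene Cxcl12 was at 7.46, 4.6, 9.02 and 5.02 in ESCs, 46.8, 41.8, 46.1 and 39.5 in Eo- and 9.29, 8.03, 22.2 and 7.62 in Eo+. Spon1, which encodes the matrix protein F-spondin, had means of 1.03, 12.5 and 3.41 in the same order of groups.

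Of genes that act on Wnt signalling, Rspo1 encodes an R-spondin, which strengthens the signal, and Sfrp2 a secreted Frizzled-related protein, which binds Wnt ligands. Rspo1 means were 3.84 in ESCs, 11.7 in Eo- and 2.9 in Eo+, and Sfrp2 means 12.9, 35.3 and 13.8. Sfrp2 was the only gene of a 26-gene Wnt list among the 97. Of its 25 other genes, Eo- cells had 10 above and 5 below the ESC level at an adjusted p of at most 0.05 (limma, Benjamini-Hochberg), where 57.3% of all loci tested were called (27.9% above, 29.4% below). Eo+ cells had 14 above and 3 below the Eo- level, where 43.4% were called (21.2% above, 22.2% below). Calcr, the calcitonin receptor gene, and Lpl, lipoprotein lipase, had ratios of 2.4 and 2.32.

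Epithelial genes formed a group of 6. Cldn3, a tight-junction claudin, was at 2.14, 3.98, 2.03 and 3.97 in ESCs, 9.13, 14.5, 14.7 and 10.5 in Eo- and 2.49, 1.67, 6.9 and 1.66 in Eo+. Rab25, a small GTPase of epithelial membrane recycling, was at 3.54, 5.1, 3.38 and 4.73 in ESCs, 38, 43.8, 48 and 41.7 in Eo- and 15.6, 16.6, 25.6 and 14.5 in Eo+, so all 3 groups were apart. Marveld3, a junction protein, Mal2, a protein of apical transport, Lad1, an anchoring filament protein, and Pcdh1, a protocadherin, had ratios of 2.26, 3.04, 2.57 and 2.42. In each of the 6 genes Eo+ replicate 5 was the highest Eo+ library.

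Most of the other listed genes of epithelial junctions and polarity were also highest in Eo- cells. Cldn3, Marveld3 and Rab25 belong to a list of 25 junction and polarity genes, and of its 22 further genes the Eo- mean was the highest of the 3 for 16, against 21.2% of the 15319 tested named loci that have normalized values. Of these 22, 14 were higher, 3 lower and 5 not called in Eo- cells against ESCs, where 27.9% of all loci were higher and 29.4% lower. In Eo+ against Eo- cells 1 was higher, 14 lower and 7 not called, where 21.2% of all loci were higher and 22.2% lower. Their log2 fold changes had medians of 0.76 and -0.65, beside 0.02 and -0.03 over all 20212 loci tested. Not every Eo+ library was lower, as the sum of the whole list in Eo+ replicate 5 (1924) lay within the Eo- range of 1804 to 2095. The other Eo+ libraries summed to 1010 to 1192. Cdh1, which encodes E-cadherin, had means of 347, 579.6 and 312 in ESCs, Eo- and Eo+ cells, with log2 fold changes of 0.71 ± 0.16 (SE, adjusted p = 0.0014) and -0.93 ± 0.16 (adjusted p = 0.00033). Crb3, an apical polarity gene, rose by 1.95 ± 0.25 on the log2 scale from ESCs to Eo- cells and was lower in Eo+ than in Eo- cells, at -0.90 ± 0.22 (adjusted p of 2e-05 and 0.0051). The 3 that were lower in Eo- cells than in ESCs were Cldn4, Grhl1 and Ovol1, at -0.83, -1.11 and -1.49. Keratin genes were mixed. With the replicate number as a block, Krt7, Krt8 and Krt18 were higher in Eo+ than Eo- cells, by 1.33, 1.85 and 0.99 (log2). Krt14 was lower, at -1.58, and Krt19 was not called. These comparisons share the Eo- libraries.

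Formative and primed epiblast genes, a list of 24 that overlaps the epithelial list in Cdh1, Epcam, Cldn6 and Grhl2, held 6 of the 97 genes, namely Pou3f1, Dnmt3a, Dnmt3b, Sox3, Foxd3 and Sall2. Of the 18 others, 11 were higher, 3 lower and 4 not called in Eo- cells against ESCs, and 4 were higher, 7 lower and 7 not called in Eo+ against Eo- cells, beside the same shares over all loci. The 4 higher became 6 without Eo+ replicate 1 and 2 without Eo+ replicate 2 or 6. Their medians were 0.56 and -0.14. Fgf5 and Otx2, the best-known markers of this state, rose from ESCs to Eo- cells by 3.07 ± 0.29 and 3.0 ± 0.24 on the log2 scale (SE). Neither passed the rule, as Fgf5 was higher still in Eo+ cells, with a mean of 185 against 114, and for Otx2 no difference between the fractions was called (154 against 177, adjusted p = 0.45, and 0.44 with the replicate number as a block). Otx2 was lower in the Eo+ library of each replicate number, at 120.4, 161, 203 and 131 against 157, 173, 214 and 163 in Eo-. Utf1 showed no call from ESCs to Eo- cells (287 and 293) and was lower in Eo+ than in Eo- cells, at -4.82 ± 0.31.

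Genes known from neurons and other excitable cells made up a pair of groups. The ion channel and receptor group held 9 genes and the group of vesicle release, axonal transport and neuronal cytoskeleton 14, with median ratios of 2.13 and 2.33. Kif1a, a kinesin that carries synaptic vesicle precursors, was the most abundant, at 43.8, 45.8, 26.2 and 33.8 in ESCs, 121, 144, 149 and 143 in Eo- and 46.7, 59.1, 92.2 and 45.2 in Eo+. Snph, syntaphilin, which anchors axonal mitochondria, had means of 2.41, 21.8 and 7.36, and Astn1, astrotactin, a neuron-glia adhesion protein, of 0.736, 8.43 and 2.94. Grik3, a kainate receptor subunit, was at 23.8, 30.2, 23.3 and 19.2 in ESCs, 62.5, 58.2, 53.5 and 65.5 in Eo- and 20.5, 33.8, 32 and 29.4 in Eo+. The channel genes Kcng3, Gabra3, Abcc8 and Cacna1b had Eo- means of only 6.46 to 15.7 and FPKM of 0.345 to 1.65.

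A list of 20 neuroectoderm genes held none of the 97. Only 0.946% of the named loci with an Eo- mean of at least 5 passed the rule, so nothing is read from an empty list. Pou3f1 and Sox3, which are also known from neural cells, were counted in the epiblast list. Of its 14 tested genes, Eo- cells had 3 above and 7 below the ESC level, with 4 not called (27.9% and 29.4% of all loci). In Eo+ against Eo- cells 2 were higher, 6 lower and 6 not called (21.2% and 22.2%). The median log2 fold changes were -0.87 and -0.61, and the list summed to 432 to 504 in ESCs, 228 to 290 in Eo- and 86.3 to 158 in Eo+ cells. The lists of surface ectoderm and amnion genes and of visceral endoderm genes held no member either, and that of trophoblast genes held Cdx2 alone, a gene it shares with the caudal epiblast list. In all, 14 of the 97 genes belonged to any of 26 lists of 423 genes.

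Genes of intracellular signalling numbered 10. Arl4c, a small GTPase, was the most abundant, at 33.6, 46.7, 48.2 and 35.5 in ESCs, 118, 148, 151 and 138 in Eo- and 39.4, 29, 64.8 and 32.9 in Eo+. Rgl3, an effector of Ras-type GTPases, was near absent in ESCs, with a mean of 0.854, and was at 13.3 ± 2.63 in Eo- and 4.45 ± 1.42 in Eo+ cells (SD, n = 4). The regulators of G-protein signalling Rgs10 and Rgs11 and the phosphodiesterase gene Pde4b had ratios of 2.03, 2.23 and 2.16. Among genes without a group, Slc35d3, a nucleotide-sugar transporter relative, had means of 0.651, 12.5 and 3.16 and Usp44, a deubiquitinase of the spindle checkpoint, of 27.2, 57.9 and 24. Rbbp8nl, Tmem154 and Tmem130, none of them above 8.37 in Eo- mean, had ratios of 5.23, 4.47 and 3.37.

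The long noncoding RNAs were Miat (chr5:112212780-112229395, - strand), whose locus also holds 4 predicted Gm genes, and the intergenic transcript RP23-61B14.2 (chr9:84732626-84891148, + strand). Miat was at 4.45, 3.76, 3.92 and 5.45 in ESCs, 11.7, 12.9, 18.9 and 16.2 in Eo- and 0.602, 0.566, 1.99 and 0.397 in Eo+, the largest Eo- over Eo+ ratio of all 97 at 16.8. RP23-61B14.2 had means of 6.27, 25.4 and 6.84, and its ESC and Eo+ libraries overlapped.

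Some values cannot be given to 1 gene. The locus with the second highest level, 1177 ± 143 in Eo- cells against 347 ± 27.3 in ESCs and 476 ± 103 in Eo+ cells (SD, n = 4), spans Otud5, Pim2 and Slc35a2 (chrX:7841125-7899213, + strand), and its counts are not divided among them. In all, 9 of the 97 loci hold more than 1 gene name, among them also those of Miat, Brsk2, Zfp36l3, Skida1, Jph4, Hopx and Mapk8ip2. Ctla2a, H2-Q2 and Hbb-bh1 have close relatives, so reads that match several copies may be missing from them or misplaced.

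Blood and vessel genes behaved apart from the rest. Hbb-bh1 is an embryonic beta-like globin, Tie1 and Cdh5 (VE-cadherin) mark endothelium, and Nos3 is the endothelial nitric oxide synthase. Hbb-bh1 was at 74.5, 1.53, 1.89 and 2.68 in Eo- replicates 1, 2, 5 and 6, at 7.51, 0.053, 1.05 and 0.208 in Eo+, and in ESCs at 0, 0.0147, 0 and 0.021. Tie1 was at 28.6, 6.55, 2.22 and 4.63 in Eo- and 6.78, 0.297, 0.875 and 0.774 in Eo+, beside ESC values of 1.16, 1.08, 0.75 and 1.1. Cdh5 was at 40.0, 6.66, 2.91 and 6.35 in Eo- and 17.4, 1.37, 2.86 and 3.36 in Eo+, with 0.186 to 0.514 in ESCs. For all 4 genes, and for Ctla2a and Cdx2, Eo- replicate 1 was more than 1.5 times the mean of the other Eo- libraries, and for each of the 6 Eo+ replicate 1 was the highest Eo+ library.

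The place of these 6 genes among the 97 rests on that library. Without Eo- replicate 1 the ratio fell from 9.14 to 0.924 for Hbb-bh1, from 2.24 to 0.85 for Cdh5, from 2.15 to 1.44 for Cdx2 and from 2.06 to 1.27 for Nos3. Tie1 then had a ratio of 2.05 and Ctla2a of 2.82, but their Eo- means fell to 4.46 and 4.93, under the minimum of 5. Without Eo+ replicate 1 the ratios of Hbb-bh1, Tie1, Ctla2a and Cdh5 were 46.3, 10.3, 18 and 5.53. Cdh5, Cdx2 and Nos3 also fell under 2 without certain other single libraries, with Nos3 the lowest at 1.77 without ESC replicate 5. Without all 3 libraries numbered 1, Cdh5 passed the rule and the other 5 did not. Several cell type lists were highest in replicate 1 of both day 3 fractions. The erythroid list holds Hbb-bh1, the endothelial and blood precursor list Tie1 and Cdh5 and the trophoblast list Cdx2. Their sums thus repeat values of these genes in part. That of parietal and primitive endoderm holds none of the 6. The 20 primitive erythroid genes summed to 181, 31.8, 24.3 and 36.3 in Eo- replicates 1, 2, 5 and 6 and 179, 70.2, 44.1 and 121 in Eo+, and the 17 endothelial and blood precursor genes to 363, 168, 106 and 141 in Eo- and 631, 334, 174 and 506 in Eo+. The trophoblast list, which includes Cdx2, summed to 592, 282, 209 and 336 in Eo- and 1174, 499, 589.9 and 654 in Eo+, and that of parietal and primitive endoderm to 834, 655, 566 and 681 and 1898, 1362, 1384 and 1603. The part of these lists in the values of the 6 genes was not tested.

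The Eo- mean was the highest of the 3 for 8 of the other 14 erythroid genes tested and 6 of the other 14 endothelial and blood precursor genes tested, against 21.2% of the same named loci. A single library can carry such a mean. In replicates 2, 5 and 6 the erythroid list summed to less in Eo- than in Eo+ cells (31.8, 24.3 and 36.3 against 70.2, 44.1 and 121). In Eo+ against Eo- cells 2 of these erythroid genes were higher, 5 lower and 7 not called, and of the endothelial and blood precursor genes 3 were higher, 2 lower and 9 not called (21.2% and 22.2% of all loci). With the replicate number as a block the endothelial and blood precursor genes split into 6 higher and 2 lower. The 5 lower erythroid genes became 3 without Eo+ replicate 2 or 6. Hba-x, the embryonic alpha-like globin, followed Hbb-bh1, at 16.5, 0.773, 0.327 and 1.16 in Eo- and 0.0286 to 0.269 in Eo+. The genes called higher in Eo+ cells were Gata2 (adjusted p = 0.023) and the haemangioblast regulators Kdr, Etv2, Tal1 and Lmo2, the last 4 by 3.29, 2.5, 2.0 and 1.94 on the log2 scale (adjusted p of 0.00022, 0.00059, 0.015 and 0.0017). Cdx2, a caudal and trophoblast factor, was at 34.3, 11.4, 4.87 and 18.3 in Eo-, 7.68, 7.5, 13.4 and 3.51 in ESCs and 11.2, 3.87, 4.21 and 8.65 in Eo+, and in replicate 5 its ESC value was the highest.

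**Figure D4:**
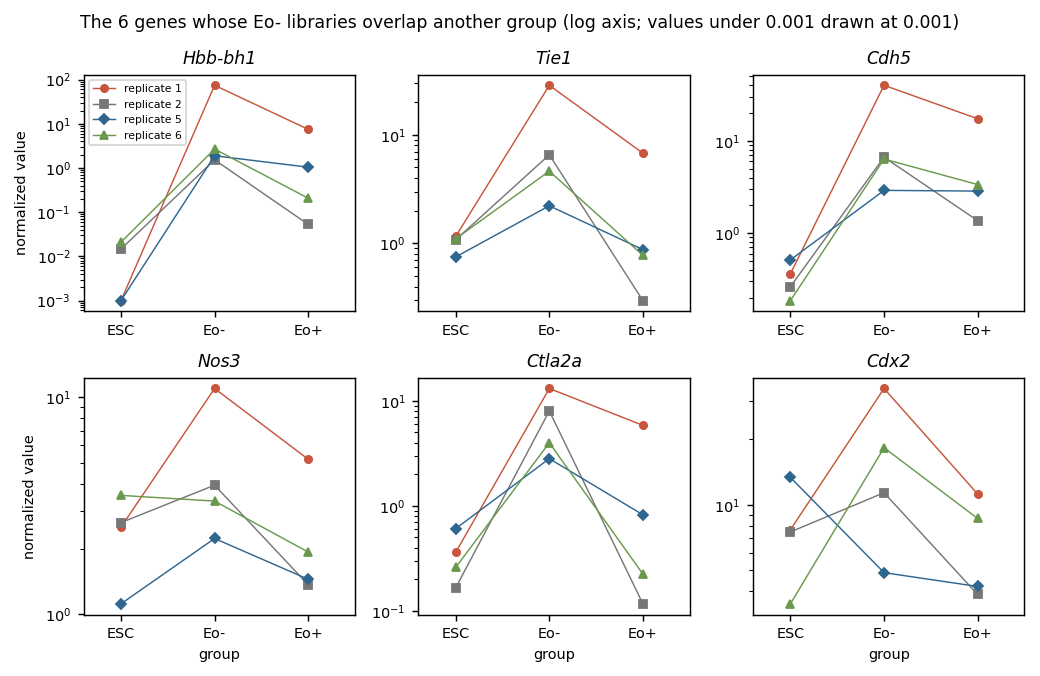
The 6 genes whose Eo- libraries overlap another group are plotted on log axes, with lines joining libraries of the same replicate number, and values under 0.001 are drawn at 0.001. Replicate 1 is the highest line in both day 3 fractions for every gene, and Cdx2 in replicate 5 declines from ESCs.

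The replicates differed in a broader way as well. Eo+ replicate 5 was the highest Eo+ library for 85 of the 97 genes, against 22.1% of the 10154 other named loci with an Eo- mean of at least 5. Its value divided by the mean of the other Eo+ libraries had a median of 1.61 over the 97 genes (0.958 over the others) and passed 1.5 for 58 (4.37% of the others). In terms of each gene's Eo- mean, the median level was 31.2%, 35.1%, 48.7% and 30.2% in Eo+ replicates 1, 2, 5 and 6, 29.3% to 34.6% in the ESC libraries, and 87.2%, 98.2%, 112% and 101% in the Eo- libraries. Among the Eo- libraries too, replicate 5 was the highest for 60 genes (24.2% of the others) and replicate 1 the lowest for 66 (33.3%). Beside this, Eomes in Eo+ replicate 5 (450) was close to that of replicate 1 (453), the mesendoderm list summed to 3016 in Eo+ replicate 5 and 3004 in replicate 1 (4066 and 4468 in the others), and the epithelial list to 1924 in Eo+ replicate 5 and 1010 to 1192 in the others. The part of these differences in the peak was not tested. Shh, which falls outside the 97 with means of 0.0732 in ESCs, 9.62 in Eo- and 6.01 in Eo+ cells, was at 13.97 in Eo+ replicate 5 and 13.98 in Eo- replicate 5.

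Each replicate number was left out in turn, the rule applied to the other 9 libraries, and the genes so chosen read in the 3 libraries that had no part in choosing them. With replicates 1, 2, 5 and 6 left out, 97, 94, 104 and 94 genes were chosen. The left-out Eo- library was above both left-out others for 97, 94, 103 and 93 of them, where the background over the 10251 named loci was 18.8%, 22.3%, 26.6% and 22.1%. It was at least 2 times both for 65, 75, 49 and 70, or 67.0%, 79.8%, 47.1% and 74.5%, against backgrounds of 0.966%, 1.17%, 0.927% and 1.19%. The exceptions to the first count were Cdx2 in replicate 5 and Nos3 in replicate 6. The median ratio in the left-out libraries was 2.24, 2.43, 1.94 and 2.73, lowest in replicate 5.

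The remaining comparison, Eo+ cells against ESCs, shows where the other 2 groups stand to each other. The rule did not use this contrast directly, though it kept both means at or under the Eo- mean divided by 2. At an adjusted p of at most 0.05, 44 of the 97 genes passed (45.4%), of which Eo+ cells had 27 above and 17 below the ESC level, where 66.7% of all 20212 tested loci were called, 32.9% higher and 33.8% lower. Of named loci with an Eo- mean of at least 5, 69.2% were called. The median log2 fold change of the 97 was 0.13, beside 0.11 for named loci with an Eo- mean of at least 5.

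The largest rises were in Cdh5 (3.63 ± 1.14, SE, adjusted p = 0.012), Zfp467 (2.47 ± 0.21), Rgl3 (2.35 ± 0.28), Slc35d3 (2.32 ± 0.26), Rab25 (2.09 ± 0.21) and the Skida1 locus (2.04 ± 0.18), on the log2 scale. Their means were lowest in ESCs, intermediate in Eo+ and highest in Eo- cells, though for Cdh5 the Eo- and Eo+ libraries overlapped. The largest falls were in Miat (-2.60 ± 0.37), Foxi3 (-2.23 ± 0.27), Pou3f1 (-2.08 ± 0.27), Pdzd4 (-1.65 ± 0.17), Kcnh6 (-1.40 ± 0.24) and Tmem54 (-1.35 ± 0.27), whose means were highest in Eo- cells, intermediate in ESCs and lowest in Eo+ cells. Pdzd4, a PDZ-domain gene on the X chromosome, was at 144, 118, 106 and 145 in ESCs, 211, 251, 281 and 285 in Eo- and 31, 40.8, 58.1 and 38.80 in Eo+. Leaving out any of the 8 libraries kept the call of each of these 12 genes. Hbb-bh1, at 7.4 ± 4.23, did not pass (adjusted p = 0.14) although its ESC libraries were at or near 0, and it passed with edgeR in place of limma, with a replicate block and with only the 2 groups fitted.

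By group, the 12 transcription and methylation genes split into 4 higher (Dnmt3b, Sall2, Zfp467, Skida1), 5 lower (Pou3f1, Foxi3, Foxd3, Hopx, Sox3) and 3 not called. Over all tested loci 66.7% were called in Eo+ cells against ESCs, 32.9% higher and 33.8% lower. The groups were set after the values had been seen, so nothing is read from the splits given here. Dnmt3b was higher in Eo+ cells by 0.66 ± 0.15 (SE, adjusted p = 0.0013), while Dnmt3a, at -0.13 ± 0.13, was not called (adjusted p = 0.4). Sox3, at -0.90 ± 0.30, lost its call without ESC replicate 5 or without Eo+ replicate 2 or 6. In the epithelial group 1 of 6 genes was called (Rab25), among the secreted genes 3 were higher (Spon1, Calcr, Spock2) and 1 lower (Vwa2), and among the vesicle and cytoskeleton genes 6 were higher and 2 lower (Brsk2, Rims4). Spock2 lost its call without ESC or Eo+ replicate 5 and Vwa2 without Eo+ replicate 1 or 6. Kif1a and Trim46, of the 6, lost theirs without ESC replicate 5 and without ESC replicate 1 or Eo+ replicate 5. Of the channel genes Kcnj3 was higher, though not without ESC replicate 1, and Kcnh6 lower.

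**Figure D5:**
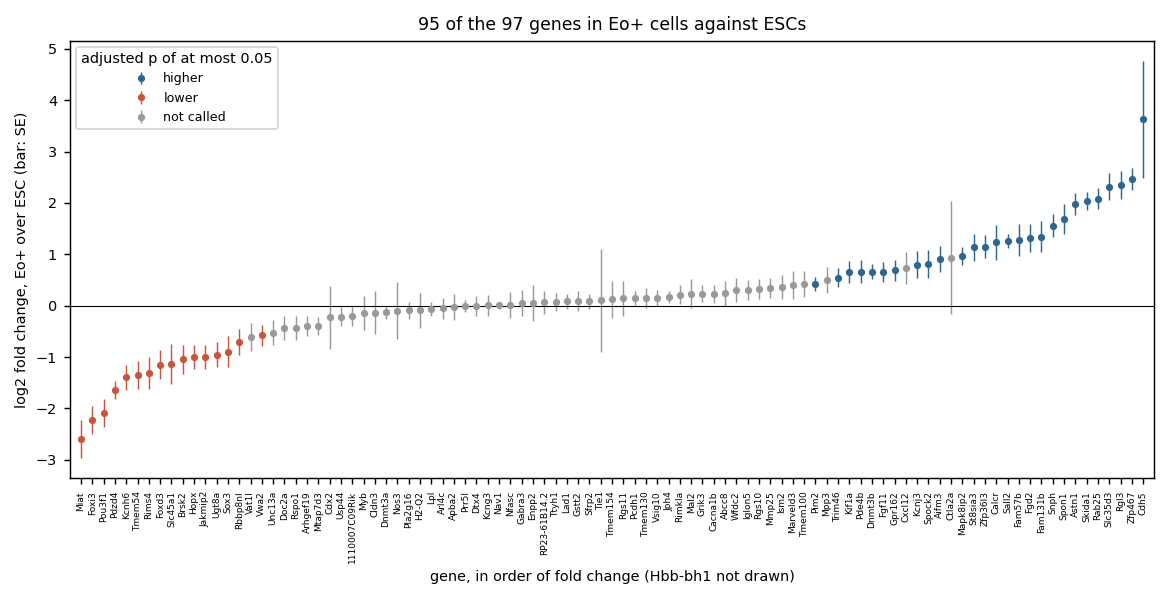
Log2 fold change of Eo+ cells over ESCs with its SE for 95 of the 97 genes in order of size, coloured by the call at an adjusted p of at most 0.05 (Hbb-bh1 was left out because of its wide error). Of the 97, 27 were higher, 17 lower and 53 not called, and the called genes run from -2.60 (Miat) to 3.63 (Cdh5).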

How the data were processed

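Per the methods and labels, the authors mapped stranded paired poly(A) reads to mm10 with STAR, assembled loci with Cufflinks 2.2.1 and used HTSeq 0.6.1 for read counting over the merged loci. The deposited counts are whole reads per locus. The deposited normalized values, a CPM-like signal used here for levels, equal those counts divided by 1 constant per library (0 loci off by more than 1e-9). Reads that the counter placed in no locus (2.65% to 3.6%) or that mapped more than once (22.4% to 26.2%) stayed out. FPKM was computed here from counts and summed exon length. Depth was 648413022 to 837308168 counts per library, and limits from a count of 3 cover counting error only. Counts of 20212 loci with a mean FPKM above 0.1 in at least 1 group were fitted with limma 3.58.1 (voom, TMM, 1 mean per group, all 12 libraries) with Benjamini-Hochberg adjustment over all loci at 0.05. edgeR 4.0.16 and DESeq2 1.42.0, other scalings and filters, a replicate block and leaving out each library were alternatives. The scripts were tested on simulated counts for Eo+ cells against ESCs. There limma recovered 58% of changes of 1 and 97% of changes of 2 on the log2 scale. It made 5 false calls, edgeR 3 and DESeq2 67. A gene that was not called is therefore not shown to be unchanged.

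The genes and lists were chosen with earlier results of these data known. Named were the 15 largest ratios, the 10 highest levels, members of 26 lists, the 6 largest called rises and falls in Eo+ cells against ESCs, the 5 most and 5 least variable genes in Eo- cells, the 3 genes nearest the threshold on each side, neighbours within 100 kb and loci of uncertain identity. Results of 1 of the 97 genes are counted in totals but not reported here. Other genes named serve as examples and were chosen after their values were seen. The plan for naming genes also had a part on genes correlated with Shh, which was not applied, as Shh is not among the 97. Same-numbered Eo- and Eo+ libraries deviated together (r = 0.275 to 0.597 over loci, every pair above 0.1) and the methods describe 4 differentiation sets, whereas same-numbered ESC and Eo- libraries ranged from -0.162 to 0.462. The main fit did not use this pairing. With the replicate number as a block, list genes in Eo+ against Eo- cells went from 152 higher and 109 lower to 170 and 122. Over all 20212 loci the counts went from 4286 and 4483 to 4811 and 5027. The sources name no separate animals, so p-values measure the spread between these cultures. At least 55938 loci differed in count between any pair of libraries, so each was kept as its own replicate.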

Additional observations from a re-analysis of the deposited data

Results flagged for a closer look

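In 19 of 123 gene and group sets tested (41 named genes, 15.45%), the highest or lowest of the 4 libraries stood apart from the others by Dixon's 95% limit, where chance gives about 1 in 20. Some of these genes were named for their spread in Eo- cells or their large ratios, from the same values, so the share is not set against that rate. Of these, 9 concerned Eo+ replicate 5, each time as the highest Eo+ library. The normalized values there were 1053 for Dnmt3b, 32.3 for Enpp2, 24.3 for Foxd3, 22.2 for Cxcl12, 8.91 for Foxi3, 6.9 for Cldn3, 3.47 for Tmem154, 1.99 for Miat and 1.14 for Rbbp8nl.

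Libraries numbered 1 stood apart for blood and vessel genes. In Eo- replicate 1 the values were 74.5 for Hbb-bh1, 40.0 for Cdh5 and 28.6 for Tie1, all high, and 6.25 for Abcc8, which was low there. In Eo+ replicate 1 they were 17.4 for Cdh5, 7.51 for Hbb-bh1, 6.78 for Tie1, 5.84 for Ctla2a and 5.18 for Nos3. Sall2 was low in ESC replicate 2, at 14.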

How the results depend on the processing

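The number of genes found by the rule moved with its own limits, to 23 at 3-fold, 270 at 1.5-fold and 203 with an Eo- mean of at least 1. It was 105 with library totals, 87 with TMM, 106 with group medians, 73 with an Eo- mean of at least 10, and 94 to 104 without the libraries of 1 replicate number. In Eo+ cells against ESCs 44 of the 97 genes were called, and 27 (16 higher, 11 lower) when a 2-fold change was asked for as well. The count was 47 with edgeR, 50 with DESeq2 and 41 to 48 without 1 library (24 to 33 higher, 13 to 24 lower). Without Eo+ replicate 5 it was 24 higher and 24 lower, and without Eo+ replicate 1 it was 33 and 13. With the replicate number as a block, 49 were called (31 higher, 18 lower). Of list genes in Eo- cells against ESCs, 128 were higher, 84 of them by at least 2-fold, and 146 lower, 111 of them by at least 2-fold. Over all loci tested 27.9% were higher and 29.4% lower. Over the 4 left-out replicates, 49 to 75 of the genes chosen without them were at least 2 times both other values there, and at least 93 were above both. No call changed direction under the fitted alternatives, among the 97 genes in Eo+ cells against ESCs or among the other list genes in the 3 comparisons. Calls of the 97 genes were lost in 25 and gained in 42 gene and setting pairs, with 2064 other values of single genes on the same side of the threshold or within the replicate spread. The log2 ratio of Eo- to the higher other mean moved beyond that spread for 3 genes, to 1.43 for H2-Q2 and 1.004 for Pla2g16 without replicate 5 and 0.38 for Nos3 without replicate 1.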
